A study of Mus musculus with 5 samples.

Results

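The genes described here form 1 signalling group of 7 among the 22532 genes in the count matrices. They are the receptor tyrosine kinase Alk, its closest relative Ltk, their secreted ligands Alkal1 and Alkal2, the heparin-binding growth factors Ptn (pleiotrophin) and Mdk (midkine), and Ptprz1, a receptor-type tyrosine phosphatase that binds pleiotrophin. They were followed over neuron and glial classes of tissue dissected from the mouse central amygdala (CeA) and between fed and fasted libraries. Alk was known beforehand to differ with feeding in these libraries, in the neurons marked by Nts and Tac2, so the fed and fasted values of the members in the matching Dnah5 class are given as a description with no test.

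ALK and LTK are cell surface kinases that ALKAL proteins bind and bring together, and the activated receptor signals through adaptor proteins to the MAP kinase, PI3 kinase and STAT3 routes. Pleiotrophin and midkine bind the sugar chains of PTPRZ1, which lowers the activity of this phosphatase and leaves its substrates more phosphorylated. Ptprz1 and Ptn are known from astrocytes and oligodendrocyte precursor cells (OPCs), and Alk is known from neurons, where its loss in mice is linked to leanness. The CeA itself is made of inhibitory neurons that act on feeding and on defensive behavior.

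The data were unique molecular identifiers (UMIs), counts of distinct transcript molecules, from single nuclei of microdissected CeA in 5 libraries. The labels give C57BL6 mouse brain for all of them, and each library pooled tissue of 1 male and 1 female mouse. Fed 1 and fed 2 came from mice of 8 weeks with normal food, and fed 3 came from Htr2a-Cre mice of 12 weeks that carried AAV-DIO-mCherry, a virus that labels only cells with Cre. Fasted 1 and fasted 2 came from mice of 8 weeks without food for 20 and 21 hours. Age, transgene and virus cannot be told apart from fed 3 itself. Libraries of 1 state are described as biological replicates. Between fed and fasted libraries p-values measure the spread between these 5 libraries of pooled animals. Between classes the library is a block, so p-values measure how class differences vary over the 5 libraries. Both kinds use a spread estimated in part over all genes, so very small p-values do not rest on 5 libraries alone.

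From 1130 to 1734 nuclei per library passed the filters on genes and mitochondrial UMIs, at a median of 6608 to 16367 UMIs, and only 3 cell barcodes were shared between any libraries. Neurons were sorted into classes by the raw UMIs of 1 marker gene each, and levels were given as counts per 1000000 UMIs of all nuclei of that class in that library (CPM). The Dnah5 class held 309 nuclei, with 39 to 78 per library, and carried its check markers Vipr2, Tac2 and Nts at means of 276, 127 and 50.7 CPM. The Prkcd, Calcrl, Sst, Rai14, Foxp2 and Rarb classes held 479, 302, 324, 144, 379 and 1003 nuclei. The paper uses Foxp2 for intercalated cells and Rarb for the amygdalostriatal area, and it places both outside the CeA. Both classes enter the mean of the other neuron classes used below. The Tac1 and Vdr classes held 47 and 60 nuclei, with fewer than 10 in some libraries, and entered no test. Many inhibitory neurons reached no marker minimum. They numbered 451 of 900, 295 of 786 and 435 of 1229 in fed 1, 2 and 3, and 762 of 1319 and 534 of 1352 in fasted 1 and 2. No gate was set for the Il1rapl2 cluster, the largest of the medial CeA in the paper. Rankings of neuron classes thus cover gated neurons only, and the gated share differed between libraries. Ptgds, a transcript abundant in oligodendrocytes and meninges, lay at 0 to 4.43 CPM in the fed and at 36.5 and 73.0 CPM in the fasted libraries of the Dnah5 class, and at 0 in all fed and at 35.0 and 46.8 CPM in the fasted libraries of microglia. Ptgds thus differed with feeding in several classes at once. Whether its UMIs came from other cells was not tested, nor was the part of RNA of other cells in the members' values.

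The members lie on 5 chromosomes of the GRCm39 assembly, each in a protein-coding gene. Alk spans chr17:72174200-72911622 on the minus strand, 737.423 kb, and Ptprz1 spans chr6:22875358-23054236 on the plus strand, 178.879 kb. Ptn lies at chr6:36680960-36796991 on the minus strand, Mdk at chr2:91760143-91762846 on the minus strand, and Alkal1 at chr1:6429442-6465174 on the plus strand. Ltk at chr2:119581801-119590912 (minus strand) overlaps Itpka, and Alkal2 at chr12:30933504-30944914 (plus strand) overlaps Acp1, each on the opposite strand. Intronic reads were counted, so a long gene can collect more UMIs per nucleus, and levels are compared here between classes within a gene and not between genes.

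Among the neuron and glial classes compared, Alk had its highest mean in the Dnah5 class. In that class Alk stood at 812, 839 and 1424 CPM in the fed and at 781 and 405 CPM in the fasted libraries, a mean of 852 ± 365 CPM (SD, n = 5). In the Rarb class of the amygdalostriatal area Alk stood at 111, 73.1 and 86.4 CPM in the fed and at 96.4 and 128 CPM in the fasted libraries, a mean of 98.9 ± 21.2 CPM (SD, n = 5). The 5 libraries of the Dnah5 class all lay above the 5 libraries of the Rarb class. Within a library the Dnah5 class exceeded the Rarb class by 7.30-fold in fed 1, 11.5-fold in fed 2, 16.5-fold in fed 3 and 8.10-fold in fasted 1, and in each of these 4 libraries it was the highest of the 7 neuron classes tested. In fasted 2 the highest of them was the Rai14 class, at 434 CPM, 3.40-fold above Rarb.

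**Figure D1:**
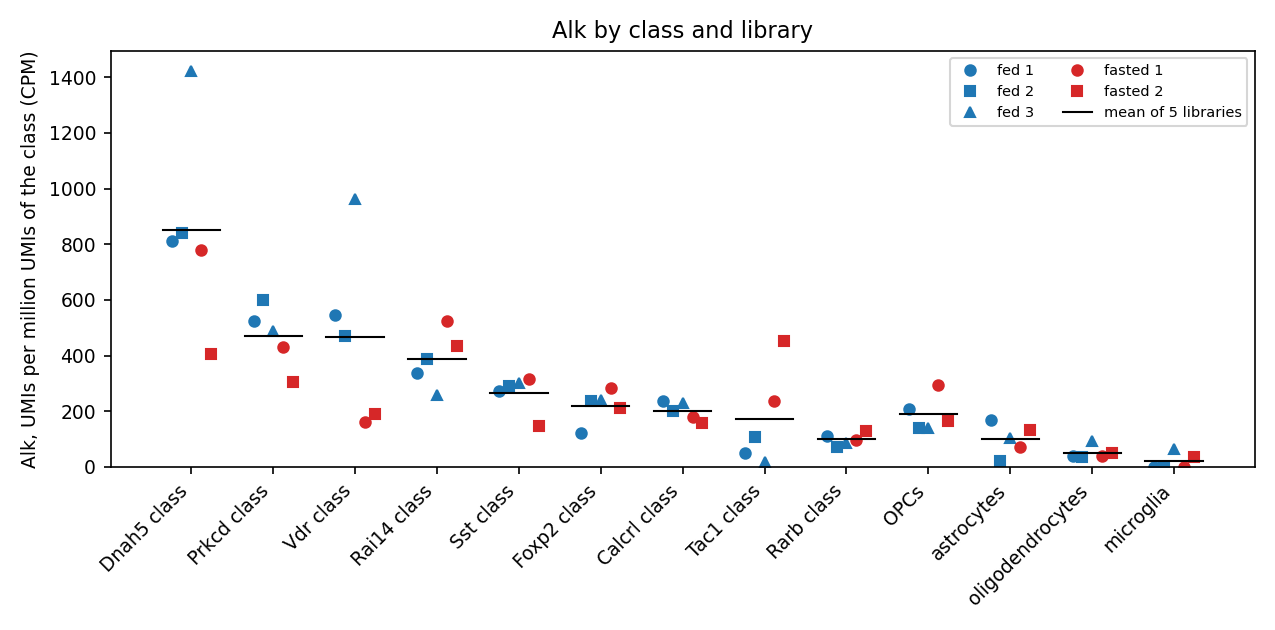
Alk in each neuron and glial class, as CPM of the class (vertical axis), with 1 symbol per library (blue fed, red fasted) and a bar at the mean of 5 libraries. The Dnah5 class has the highest mean, 852 CPM, and fed 3 (triangles) and fasted 2 (red squares) mark its upper and lower ends at 1424 and 405 CPM.

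The other classes fell between these ends. The Prkcd class of the lateral CeA had 469 ± 111 CPM of Alk (SD, n = 5) and the Rai14 class of the medial CeA 389 ± 100 CPM, against 266, 219 and 201 CPM in the Sst, Foxp2 and Calcrl classes. The small Vdr class, with 466 CPM, ranked beside Prkcd, and the small Tac1 class, with 173 CPM, lay below Calcrl. In the ranking by mean the Dnah5 class was above the Prkcd class in 5 of 5 libraries, by 383 ± 322 CPM (SD), although the ranges of the libraries overlapped. The neighbours from Prkcd down to Calcrl exchanged places in 1 or 2 of the 5 libraries, and their mean differences were below the SD of those differences, so their order was not resolved.

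Across the 7 neuron classes with at least 10 nuclei in every library, Alk, Ptprz1, Ptn and Ltk each differed between classes (edgeR quasi-likelihood F test with library as a block, adjusted p = 8.24e-14, 3.54e-15, 1.91e-10 and 1.10e-04), while the other 3 members were too low to be tested. Class differences were common in these nuclei, with 50.7% of 9717 genes passing the same test. Set against the mean of the other neuron classes, Alk was higher in the Dnah5 class by 1.75 on the log2 scale (SE 0.14, adjusted p = 1.65e-12, where 20.1% of genes passed and 11.4% were higher). It was also higher in the Prkcd class by 0.75 (SE 0.15, adjusted p = 8.37e-05, 17.9% higher) and in the Rai14 class by 0.51 (SE 0.17, adjusted p = 0.0295, 11.4% higher). The Rai14 call was lost without fed 2, fasted 1 or fasted 2, with adjusted p = 0.0546, 0.135 and 0.163.

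Alk was lower than the mean of the other classes in 2 neuron classes. In the Rarb class the log2 difference was -1.72 (SE 0.18, adjusted p = 9.84e-10, 8.46% of genes lower), and in the Calcrl class it was -0.61 (SE 0.18, adjusted p = 0.0111, 7.76% lower). The Calcrl call was lost without fasted 1 (adjusted p = 0.0598), with the gate on UMIs per 10000 (0.539) and with the stricter gate (0.336). The Sst and Foxp2 classes had log2 differences of -0.23 and -0.44 that did not pass (adjusted p = 0.486 and 0.0653), although Foxp2 passed without fasted 2 (0.0172), with the gate on UMIs per 10000 (0.0153) and with no filter on low counts (9.16e-05).

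The level of Alk in a class reflects both the share of nuclei with the transcript and the number of molecules in them. Deeper nuclei show more genes, so 4000 UMIs were drawn at random from each nucleus for these shares, and shallower nuclei were not used. After thinning, 61.2 ± 12.0% (SD, n = 5) of nuclei of the Dnah5 class had an Alk UMI, 187 of 305 nuclei, against 74.2% before thinning. The Rai14, Prkcd, Foxp2, Sst, Calcrl and Rarb classes had 53.1, 48.9, 35.5, 28.1, 25.7 and 17.2%. Microglia, which are not known to use Alk, had a UMI in 3 of 43 thinned nuclei, a mean of 9.82% that rested on the few microglia of 2 libraries. Median depths before thinning were 7964 to 21590 UMIs in the Dnah5 class and 5624 to 9255 UMIs in microglia. The Rai14 class thus had nearly as large a share of Alk nuclei as the Dnah5 class, while its level was lower in 4 of the 5 libraries.

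Alk also followed the count of the gate gene itself within inhibitory neurons. Among neurons with no Dnah5 UMI, 4329 nuclei, Alk averaged 212 ± 45.02 CPM (SD, n = 5 libraries). It averaged 263, 340 and 391 CPM in neurons with 1, 2 and 3 Dnah5 UMIs, 552 ± 231 CPM with 4 to 7, and 1022 ± 438 CPM with 8 or more. The minimum of the Dnah5 gate was 3 UMIs, but a neuron that reached it could still be put in another class by another marker. These bins thus hold all inhibitory neurons and are not the Dnah5 class. Neurons with 2 UMIs, below the minimum, had 340 ± 111 CPM of Alk, and those with 3 UMIs had 391 ± 344 CPM. Ptn ran the other way, from 40.3 CPM at 0 to 12.3 CPM at 8 or more Dnah5 UMIs, and Ptprz1 stayed between 277 and 357 CPM. Neurons with more Dnah5 UMIs are also deeper, and these points share their libraries and depth, so they are given as a description.

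**Figure D2:**
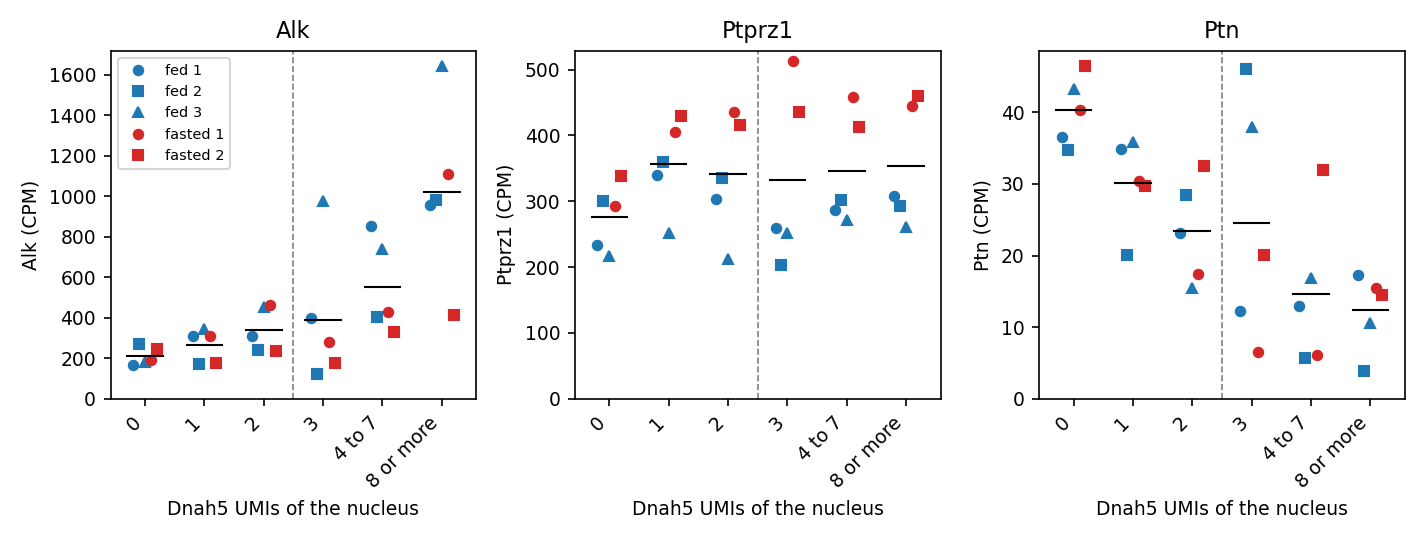
Alk, Ptprz1 and Ptn (CPM, vertical axes) in inhibitory neurons grouped by their raw Dnah5 UMIs (horizontal axes), with 1 symbol per library, bars at the mean of 5 libraries, and a dashed line where the Dnah5 gate begins. Mean Alk goes from 212 to 1022 CPM, mean Ptn from 40.3 to 12.3 CPM, and mean Ptprz1 stays between 277 and 357 CPM.

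Alk was lower in glia than over all inhibitory neurons, but OPCs stood near the 201 CPM of the Calcrl class and astrocytes near the 98.9 CPM of the Rarb class. Alk averaged 189 ± 66.3 CPM in OPCs, 100.2 ± 57.3 CPM in astrocytes and 51.7 ± 24.3 CPM in oligodendrocytes (SD, n = 5), against 269.6 ± 32.0 CPM in all inhibitory neurons. Compared with inhibitory neurons, Alk was lower in astrocytes by 1.65 on the log2 scale (SE 0.27, adjusted p = 7.03e-05, where 49.2% of genes passed and 26.5% were lower), in oligodendrocytes by 2.61 (SE 0.31, adjusted p = 2.65e-16, where 35.9% passed and 22.7% were lower) and in OPCs by 0.60 (SE 0.18, adjusted p = 0.00343, 20.4% lower). The OPC call was lost without fed 2, with adjusted p = 0.0565. In thinned nuclei 52.0 ± 14.3% of OPCs had an Alk UMI, 43 of 87 nuclei, above the 9.82% of microglia.

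Ltk, the second receptor, was found in neurons at a low level that varied little between libraries. Over all inhibitory neurons it stood at 19.7, 19.5 and 19.7 CPM in the fed and at 21.5 and 19.6 CPM in the fasted libraries, from 1590 UMIs in all. The highest class was Calcrl, with 34.8 ± 7.93 CPM (SD, n = 5), above the Prkcd class in 5 of 5 libraries. Its log2 difference from the mean of the other classes was 0.85 (SE 0.16, adjusted p = 8.41e-05, where 9.79% of genes were higher), and adjusted p was 0.0507 with the stricter gate. The Foxp2 class had the lowest level of those tested, 11.2 CPM, with a log2 difference of -0.89 (SE 0.20, adjusted p = 6.86e-04, where 25.2% of genes passed and 11.9% were lower). In the Dnah5 class, where Alk was highest, Ltk did not differ from the other classes by more than its error (log2 difference -0.03, SE 0.18, adjusted p = 0.9497).

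Ltk was nearly lacking in glia. It had 4 UMIs in astrocytes, 2 in oligodendrocytes, 1 in OPCs and 0 in microglia. A count of 0 in 71 microglia allows a share of up to 4.23% of nuclei with a UMI, counting error alone. The log2 differences from inhibitory neurons were -3.33, -3.01 and -3.88 in astrocytes, oligodendrocytes and OPCs (adjusted p = 4.89e-05, 0.00122 and 2.44e-04). Ltk lies across from Itpka on the opposite strand, and the default counting the study states takes reads of the sense strand.

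The 2 ALKAL ligands had few UMIs in these nuclei. Alkal1 had 24 UMIs and Alkal2 had 71 UMIs in all 6485 nuclei of a named class. Of the Alkal1 UMIs 23 were in inhibitory neurons, with 1 to 4 UMIs in every gated class but Tac1 and 10 in neurons of no gate, and 0 were in glia. Of the Alkal2 UMIs 55 were in inhibitory neurons and 13 in the 78 excitatory neurons at the edge of the dissection, 7 of those in fed 2 and 6 in fasted 2. The Dnah5 class had 1 UMI of Alkal1 and 0 of Alkal2 in 309 nuclei. At this depth a neuron class that makes the ligands at a low level could not be told from one that makes none.

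Among the classes compared, Ptn, the pleiotrophin gene, was highest in the oligodendrocyte lineage and astrocytes. The few endothelial nuclei were not compared, and their Ptn UMIs are given under the other observations. OPCs had 785, 742 and 675 CPM in the fed and 759 and 606 CPM in the fasted libraries, a mean of 713 ± 72.6 CPM (SD, n = 5). Astrocytes had 727, 601 and 837 CPM in the fed and 539 and 447 CPM in the fasted libraries, a mean of 630.2 ± 154 CPM. Oligodendrocytes had 852, 613 and 283 CPM in the fed and 737 and 586 CPM in the fasted libraries, a mean of 614 ± 214 CPM. These 3 glial classes were not resolved from each other, and each lay above every neuron class in all 5 libraries.

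Against inhibitory neurons, at 36.0 ± 4.25 CPM, Ptn was higher in OPCs by 4.27 on the log2 scale (SE 0.16, adjusted p = 1.35e-153, where 13.8% of genes were higher), in astrocytes by 3.98 (SE 0.17, adjusted p = 2.25e-12, 22.7% higher) and in oligodendrocytes by 3.77 (SE 0.25, adjusted p = 3.94e-51, 13.2% higher). In thinned nuclei a Ptn UMI was seen in 81 of 87 OPCs, 168 of 204 astrocytes and 35 of 53 oligodendrocytes. Microglia had a UMI in 4 of 43 thinned nuclei, a mean of 9.30%, and their 14 UMIs were uneven, with 10 of them in fasted 1.

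Neuron classes held Ptn at levels that mirrored Alk in part. The Rarb, Rai14 and Foxp2 classes had 52.0, 50.3 and 49.4 CPM of Ptn, the Prkcd class 18.3 CPM and the Dnah5 class 15.0 ± 4.02 CPM (SD, n = 5). In the Dnah5 class the 5 libraries ranged from 9.98 to 20.3 CPM, all below the 37.1 CPM of the lowest library of the Rarb class. Ptn was lower than the mean of the other classes in the Dnah5 class (log2 difference -1.33, SE 0.21, adjusted p = 3.49e-06, 8.7% of genes lower) and in the Prkcd class (-1.04, SE 0.17, adjusted p = 5.03e-06, 17.3% lower). It was higher in the Foxp2, Rarb and Rai14 classes by 0.80, 0.80 and 0.75 (adjusted p = 6.69e-05, 2.78e-06 and 0.00315, where 13.3, 11.2 and 11.4% of genes were higher), and the Rai14 call was lost without fasted 2 (adjusted p = 0.0872). The thinned shares of 6.0% in the Dnah5 class and 7.17% in the Prkcd class lay below the 9.30% of microglia, a share that rests on 4 nuclei, so Ptn in these classes was not told apart from background, while the Rarb class had 19.0%.

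Mdk, the midkine gene, was rare, with 225 UMIs in the named classes. Astrocytes had 25.1, 7.68 and 15.8 CPM in the fed and 37.9 and 22.4 CPM in the fasted libraries, from 38 UMIs, and OPCs had a mean of 19.7 ± 10.7 CPM (SD, n = 5) from 13 UMIs. Inhibitory neurons had 2.03 ± 0.66 CPM. Mdk was higher than in inhibitory neurons by 3.22 on the log2 scale in astrocytes (SE 0.37, adjusted p = 9.13e-07) and by 3.16 in OPCs (SE 0.64, adjusted p = 5.82e-06). Oligodendrocytes had 1 UMI of Mdk and were not tested for it.

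Ptprz1, the pleiotrophin receptor, was led by the same OPCs and astrocytes but was also measured in every neuron class. OPCs had 2707, 3993 and 3273 CPM in the fed and 3332 and 3273 CPM in the fasted libraries, and astrocytes had 1867, 2664 and 2124 CPM in the fed and 1866 and 1791 CPM in the fasted libraries. OPCs lay above astrocytes in 5 of 5 libraries, by 1253 ± 267 CPM (SD), and astrocytes above the highest neuron class in 5 of 5. Ptprz1 exceeded its level in inhibitory neurons by 3.48 on the log2 scale in OPCs (SE 0.13, adjusted p = 1.44e-160) and by 2.70 in astrocytes (SE 0.17, adjusted p = 3.65e-10). In oligodendrocytes, the mature cells of the same lineage as OPCs, it was lower than in inhibitory neurons by 1.29 (SE 0.27, adjusted p = 8.37e-06). After thinning, 87 of 87 OPCs and 202 of 204 astrocytes had a Ptprz1 UMI, against 4 of 43 microglia.

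**Figure D3:**
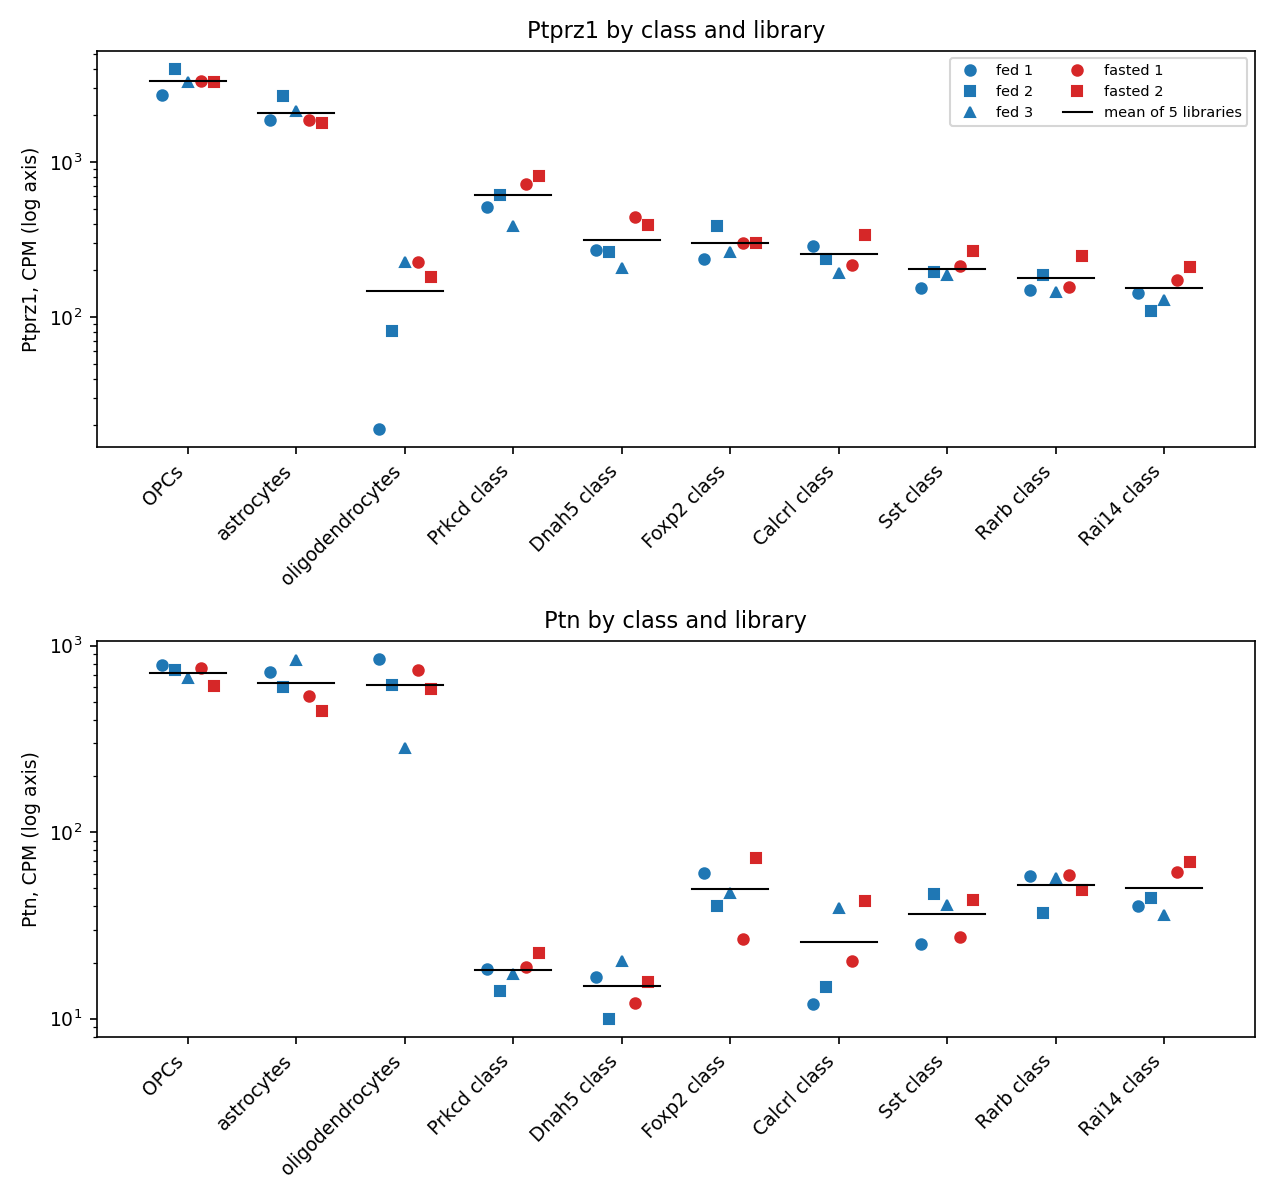
Ptprz1 (top) and Ptn (bottom) in glial and neuron classes, as CPM on log axes, with 1 symbol per library (blue fed, red fasted) and a bar at the mean of 5 libraries. OPCs and astrocytes lead both panels, oligodendrocytes join them for Ptn with 614 CPM but not for Ptprz1, and among neurons the Prkcd class is the highest for Ptprz1 with 610.0 CPM and the Dnah5 class the lowest for Ptn with 15.0 CPM.

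Among neurons Ptprz1 was highest in the Prkcd class. That class had 514, 615 and 388 CPM in the fed and 724 and 808 CPM in the fasted libraries, and it was the highest of the 7 neuron classes tested in each of the 5 libraries, by 3.02- to 5.63-fold over the lowest. Its log2 difference from the other classes was 1.36 (SE 0.09, adjusted p = 5.24e-16), and 396 of its 477 thinned nuclei had a UMI, 83.8 ± 8.12% (SD, n = 5). The Dnah5 class followed with 315 ± 98.3 CPM, a log2 difference of 0.27 that did not pass (SE 0.10, adjusted p = 0.0523, and 0.0144 to 0.410 over the alternatives), and 59.8% of thinned nuclei with a UMI.

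The remaining neuron classes had less Ptprz1. It was lower in the Rai14 class (153 ± 39.7 CPM, log2 difference -0.90, adjusted p = 6.73e-07, where 10.2% of genes were lower), in the Rarb class (177 ± 43.2 CPM, -0.59, adjusted p = 1.42e-05) and in the Sst class (203 ± 41.6 CPM, -0.41, adjusted p = 0.00676, 5.4% lower). The Foxp2 class was slightly higher (298.5 ± 56.6 CPM, 0.29, adjusted p = 0.0318), a call lost without fed 2 (adjusted p = 0.515), without fed 3 (0.173) and with the gate on UMIs per 10000 (0.0789). The Calcrl class had a log2 difference of -0.02 that did not pass (SE 0.10, adjusted p = 0.946), and of -0.54 with the stricter gate (adjusted p = 0.00130). By mean the classes with the most Alk, Dnah5 and Prkcd, had the most Ptprz1 and the least Ptn among neurons. For Ptprz1 the Dnah5 class was not resolved from the Foxp2 class, lying above it in 3 of 5 libraries, by 16.9 ± 109 CPM (SD). The small Vdr class, beside Prkcd for Alk, had 239 CPM of Ptprz1 and 18.9 CPM of Ptn. Over the 45 sums of 9 neuron classes in 5 libraries the Pearson correlations of log2 levels were moderate. They were -0.45 for Alk and Ptn, 0.32 for Alk and Ptprz1, and -0.46 for Ptn and Ptprz1. These points share libraries, depth and the classes themselves, and the coefficients are a description.

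The genes whose levels over classes and libraries were most like those of a member were named by the highest Pearson correlation of log2(CPM + 1) over 65 sums of 13 classes in 5 libraries. For Alk they were Mtmr7 (a phosphoinositide phosphatase, r = 0.87), Spock2 (an extracellular proteoglycan, r = 0.86) and Syt16 (a synaptotagmin, r = 0.86). Within the 45 neuron points alone the same coefficients were 0.30, 0.15 and 0.43. For Ptn they were Scrg1, Cecr2 and Abtb2 (r = 0.86, 0.85 and 0.83), and for Ptprz1 they were Mtss2, Gpld1 and the proteoglycan gene Cspg5 (r = 0.81, 0.80 and 0.78), with coefficients between -0.36 and 0.17 among neurons.

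Fasting was compared with feeding in 3 fed and 2 fasted libraries. In the Dnah5 class the fed libraries had 1025 ± 346 CPM of Alk (SD, n = 3) and the fasted libraries 593 ± 266 CPM (SD, n = 2), a ratio of 0.578 and a fitted log2 difference of -0.83. The fed values, 812, 839 and 1424 CPM, did not overlap with the fasted values, 781 and 405 CPM, but fasted 1 lay next to fed 1. All inhibitory neurons, whichever class they were put in, were also grouped by Dnah5 UMIs, which is not a split of the Dnah5 class. There the states overlapped in each bin of 3 or more UMIs. Neurons with 8 or more UMIs had 957, 984 and 1644 CPM in the fed and 1110 and 416 CPM in the fasted libraries. Those with 4 to 7 UMIs had 855, 405 and 742 CPM against 428 and 330 CPM. The study prepared its first fed and fasted libraries together and its second pair together, and these are taken here to be numbers 1 and 2 of the labels, which the labels do not state. Within number 1 fasted Alk was 0.961 of fed Alk, and within number 2 it was 0.483. By edgeR 0.0116% of 8598 genes passed in this class, the 1 gene being Ptgds, higher in the fasted libraries. Without fasted 2 the log2 difference was -0.41, without fed 3 it was -0.52, without fasted 1 it was -1.39, and over 15 alternatives it stayed below 0. These alternatives reuse the same 5 libraries and are a description too. Of all genes with a mean of at least 20 CPM in this class, 8.36% had all fed above all fasted libraries.

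The thinned shares of nuclei were closer between the states. An Alk UMI was found in 66.0, 53.8 and 75.7% of fed and in 65.7 and 44.9% of fasted nuclei of the Dnah5 class, so fasted 1 lay within the fed range. By level and by share fasted 2 was the lowest of the 5 libraries.

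Ptprz1 had the opposite order in the Dnah5 class. It stood at 270.1, 263 and 208 CPM in the fed and at 442 and 395 CPM in the fasted libraries, a ratio of 1.69 and a fitted log2 difference of 0.73. Neither fasted library overlapped with the fed ones, and the ratio was 1.63 within number 1 and 1.504 within number 2. The log2 difference ranged from 0.61 to 0.83 over alternatives that reuse the same libraries. In this class 11.3% of genes had all fasted above all fed libraries. Summed oligodendrocyte markers moved with it, from 143 to 167 CPM in the fed and 219 to 258 CPM in the fasted libraries, with 4 of 6 markers higher in every fasted library, and the part of such RNA in Ptprz1 was not tested. The summed astrocyte and OPC markers overlapped between the states, at 331 to 389 against 212 to 349 CPM and at 14.8 to 24.4 against 12.2 to 22.8 CPM. Their part in Ptprz1 was not tested either. Ltk stood at 14.4 to 21.1 CPM in the fed and at 21.6 and 24.3 CPM in the fasted libraries, and Ptn ranged from 9.98 to 20.3 and from 12.2 to 15.8 CPM, on 100 and 77 UMIs in all.

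**Figure D4:**
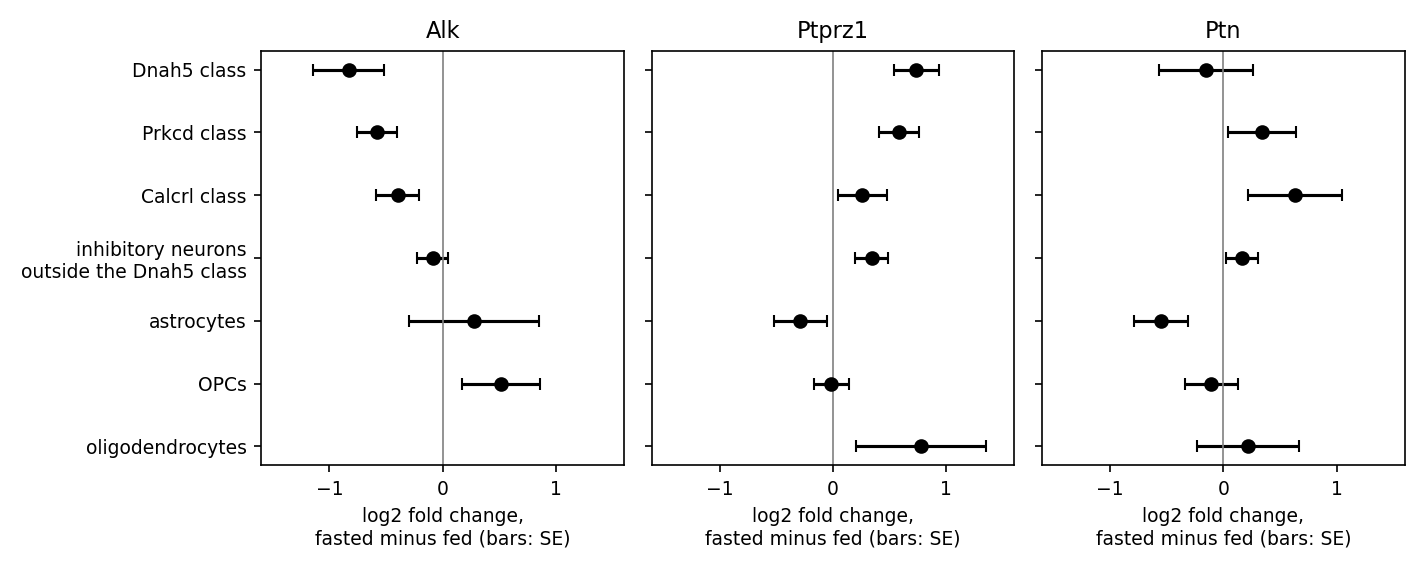
Fitted log2 differences, fasted minus fed, of Alk, Ptprz1 and Ptn (horizontal axes) in 7 groups of nuclei, with bars of 1 SE; Alk in oligodendrocytes was too low to be fitted. Alk is at -0.83 in the Dnah5 class and -0.58 in the Prkcd class, and Ptprz1 at 0.73 and 0.58. The values and bars of the Dnah5 class are a description with no test. No value of the other groups passed in these fits, which have the filter on low counts and no replicate block.

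The Prkcd class gave values of the same sign as the Dnah5 class. Alk stood at 523, 599.9 and 489 CPM in the fed and at 429.7 and 305 CPM in the fasted libraries, with no overlap, as for 9.6% of genes (log2 difference -0.58, SE 0.18, adjusted p = 0.306). Ptprz1 stood at 514, 615 and 388 CPM in the fed and at 724 and 808 CPM in the fasted libraries, with no overlap, as for 13.8% of genes (0.58, SE 0.18, adjusted p = 0.301). Neither passed the correction over the 9822 genes tested, of which 18, or 0.183%, did, with 0.0407% lower. With no filter on low counts the adjusted p became 0.0451 for Alk and 0.0245 for Ptprz1. Far more genes of all kinds passed in that setting too, as counted under the dependence on processing. Within number 1 and number 2 the ratios of fasted to fed were 0.822 and 0.509 for Alk and 1.41 and 1.31 for Ptprz1. Ptn was also higher in each fasted than in each fed library of this class, with ratios of 1.02 and 1.59. Its log2 difference of 0.34 did not pass by edgeR (SE 0.30, adjusted p = 0.907). Astrocyte markers summed to 59.6 to 71.6 CPM in the fed and 101 to 155 CPM in the fasted libraries of this class, with 3 of 6 higher in each fasted library, and their part in Ptprz1 was not tested.

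In the other neuron classes the fed values of Alk lay above, below or among the fasted values. In the Calcrl class Alk was at 235, 202 and 229 CPM in the fed and at 181 and 156 CPM in the fasted libraries, with no overlap, as for 11.5% of genes, and a log2 difference of -0.40 (SE 0.19, adjusted p = 0.912, with 1 of 8547 genes passing, 0.0117%). In the Rai14 class the order was reversed, at 336, 388 and 259 CPM in the fed and at 526 and 434 CPM in the fasted libraries, as for 9.9% of genes. The small Vdr class had 546, 471 and 963 CPM of Alk in the fed and 162 and 189 CPM in the fasted libraries, from 4 to 22 nuclei per library, an order held by 8.86% of genes. The small Tac1 class had 18.5 to 109 CPM in the fed and 237 and 453 CPM in the fasted libraries, from 7 to 13 nuclei, an order held by 9.96% of genes. In the Sst, Foxp2 and Rarb classes the fed and fasted values of Alk overlapped. Ptprz1 did not overlap in the Sst class, at 155, 195 and 187 CPM in the fed and at 213 and 268 CPM in the fasted libraries, as for 11% of genes, nor in the Rai14 class, at 143, 109 and 129 CPM against 173 and 210.4 CPM, while in the Calcrl, Foxp2 and Rarb classes it overlapped. Over the 7 neuron classes tested Ptprz1 was therefore higher in every fasted library in 4 classes and lower in none, and Alk was lower in 3 and higher in 1. Ptn was higher in 2 classes and overlapped in 5. The classes share the same 5 libraries, so these counts are a description. By class, 8.21 to 13.8% of all genes were higher in every fasted library and 7.17 to 11.5% lower.

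Over all inhibitory neurons outside the Dnah5 class the fed and fasted values of Alk overlapped. Alk was at 206, 268 and 232 CPM in the fed and at 211 and 239.6 CPM in the fasted libraries, a log2 difference of -0.09 (SE 0.14, adjusted p = 0.999). Ptprz1 was at 251, 309 and 227 CPM in the fed and at 312 and 362 CPM in the fasted libraries, with no overlap, as for 9.09% of genes, and a log2 difference of 0.34 that did not pass (SE 0.15, adjusted p = 0.934). Ltk, Ptn, Mdk and Alkal2 had log2 differences of 0.03, 0.17, 0.44 and -0.26, none of which passed, where 1 of 13404 genes, or 0.00746%, did. Whether the effect of fasting on Alk differed among the 6 tested neuron classes other than Dnah5 was asked with an interaction term, added after seeing the data. Alk ranked 24 of 9668 genes with F = 5.33, but had an adjusted p = 0.448, and Ptprz1 and Ptn had adjusted p = 0.864 and 0.9999. With no filter on low counts Alk passed (F = 11.2, adjusted p = 8.97e-08, rank 15), where 205 of 17385 genes passed. With the gate on UMIs per 10000 it did not (F = 1.98, adjusted p = 0.889, rank 1250). That fit had 5 classes and lacked Rai14, which had 9 nuclei in fed 2. With 1 library left out its adjusted p was 0.255 to 0.823, and its rank ran from 2 without fasted 1 to 1634 without fasted 2. By this edgeR test 0 genes passed and 567 had an unadjusted p under 0.05.

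In glia no member passed in the fit without the replicate block. Ptn was lower in each fasted than in each fed library of astrocytes, with a log2 difference of -0.55 (SE 0.24, adjusted p = 0.7995), where 10.4% of genes had that order and 2 of 6509, or 0.0307%, passed. The ratio was 0.742 within number 1 and 0.743 within number 2. In OPCs Ptn, Ptprz1 and Alk had log2 differences of -0.10, -0.02 and 0.51 (adjusted p = 0.996, 0.9996 and 0.895), and 7 of 3033 genes, or 0.231%, passed, with 0.033% lower. In oligodendrocytes Ptprz1 was at 18.9, 81.7 and 226 CPM in the fed and at 225 and 181 CPM in the fasted libraries, from 110 UMIs in all, with a log2 difference of 0.78 (SE 0.57, adjusted p = 0.934). With the replicate number as a block this became 1.56 (SE 0.48, adjusted p = 0.0283), a fit in which fed 3 has no partner. Astrocyte markers summed to 273 to 291 CPM in the fed and to 451 to 676 CPM in the fasted libraries of oligodendrocytes, with Aqp4 and Gfap at 0, and their part in Ptprz1 was not tested. No gene of 2659 passed in oligodendrocytes by edgeR or DESeq2, with 175 at an unadjusted p under 0.05 by edgeR, and 147 passed with the block. The block also raised the count of genes that passed to 33 in the Dnah5 class, 463 outside it, 34 in Prkcd, 58 in Calcrl and 143 in astrocytes, with Ptprz1 in oligodendrocytes the only member among them outside the Dnah5 class.

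The partners of the receptors were followed in 3 lists. List A held 43 adaptors and effectors of ALK, list B 12 transcripts that follow MAP kinase activity, and list C 33 other receptors of pleiotrophin and midkine and partners of PTPRZ1. Of the genes measured well enough for the test across neuron classes, 23 of 41 in list A, 6 of 8 in list B and 22 of 26 in list C differed between classes, where 50.7% of all genes did. In the Dnah5 class 6 of 41 genes of list A were higher and 2 lower, near the 20.1% of all genes that passed, led by Shc3, a neuronal adaptor of receptor tyrosine kinases (283 ± 57.4 CPM, log2 difference 1.13, SE 0.09, adjusted p = 8.22e-13). Of the 8 tested genes of list B, the transcription factor genes Etv4 and Etv5 were higher, by 1.91 and 1.09 (adjusted p = 7.77e-08 and 1.66e-06), and Etv1 was lower by 0.94. Of the 26 tested genes of list C, 7 were higher and 5 lower, led by the integrin gene Itga4, at 62.9 CPM against 16.9 CPM in the next class, Sst (log2 difference 3.46, SE 0.16, adjusted p = 1.48e-19), and by Nrp1, a co-receptor for guidance cues and growth factors (1.61, adjusted p = 7.75e-17). The list medians in this class were 0.07, -0.13 and 0.08, against 0.0006 over all genes.

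Shc3, Etv4 and Etv5 were higher in the Prkcd class too. Shc3 was higher by 1.17, and Cblb, a ubiquitin ligase that turns over activated receptors, by 1.47 (adjusted p = 1.59e-14 and 2.62e-18). Etv5, Egr1 and Etv4 were higher by 1.605, 1.95 and 1.62, all 3 of the list B genes that passed there. In the Prkcd class 35.2% of all genes passed, and 7 of 41 in list A were higher and 3 lower. Of 26 genes of list C 5 were higher, among them the megalin gene Lrp2 (2.71), and 8 were lower, among them Nrp1 (-1.14) and the receptor phosphatases Ptprd (-0.80) and Ptprf (-1.07). In the Calcrl class Shc3 and Etv5 were higher by 0.56 and 0.77, with 4 of 41 genes of list A higher and 4 lower, 3 of 8 of list B higher, and 5 of 26 of list C higher and 8 lower, where 17.5% of all genes passed.

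The Rai14 class, which followed Prkcd by Alk level among the tested classes, had another profile. Shc3, Etv5 and Etv4 were lower there by 1.12, 1.65 and 2.37 on the log2 scale, and Etv1 was higher by 2.52 (46.2 ± 18.7 CPM). In this class 21.6% of all genes passed. Of 41 genes of list A 1 was higher and 6 lower, and of 26 genes of list C 9 were higher, led by Ptprd (3834 ± 429 CPM, log2 difference 1.20, SE 0.06, adjusted p = 8.29e-19), and 6 lower. In the Foxp2 class Shc3 and Etv5 were lower by 1.24 and 1.20, with 7 genes of list A higher and 5 lower, 1 and 2 of list B, and 6 and 6 of list C, where 25.2% of all genes passed. The Rarb class, lowest for Alk, had 3 higher and 6 lower of list A, 2 and 1 of list B, and 5 and 5 of list C, where 19.7% of all genes passed. The Sst class had 2 higher and 3 lower of list A, none of 8 of list B, and 7 and 2 of list C, with Nrp1 higher by 1.72, where 13.2% of all genes passed and 7.78% were higher.

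**Figure D5:**
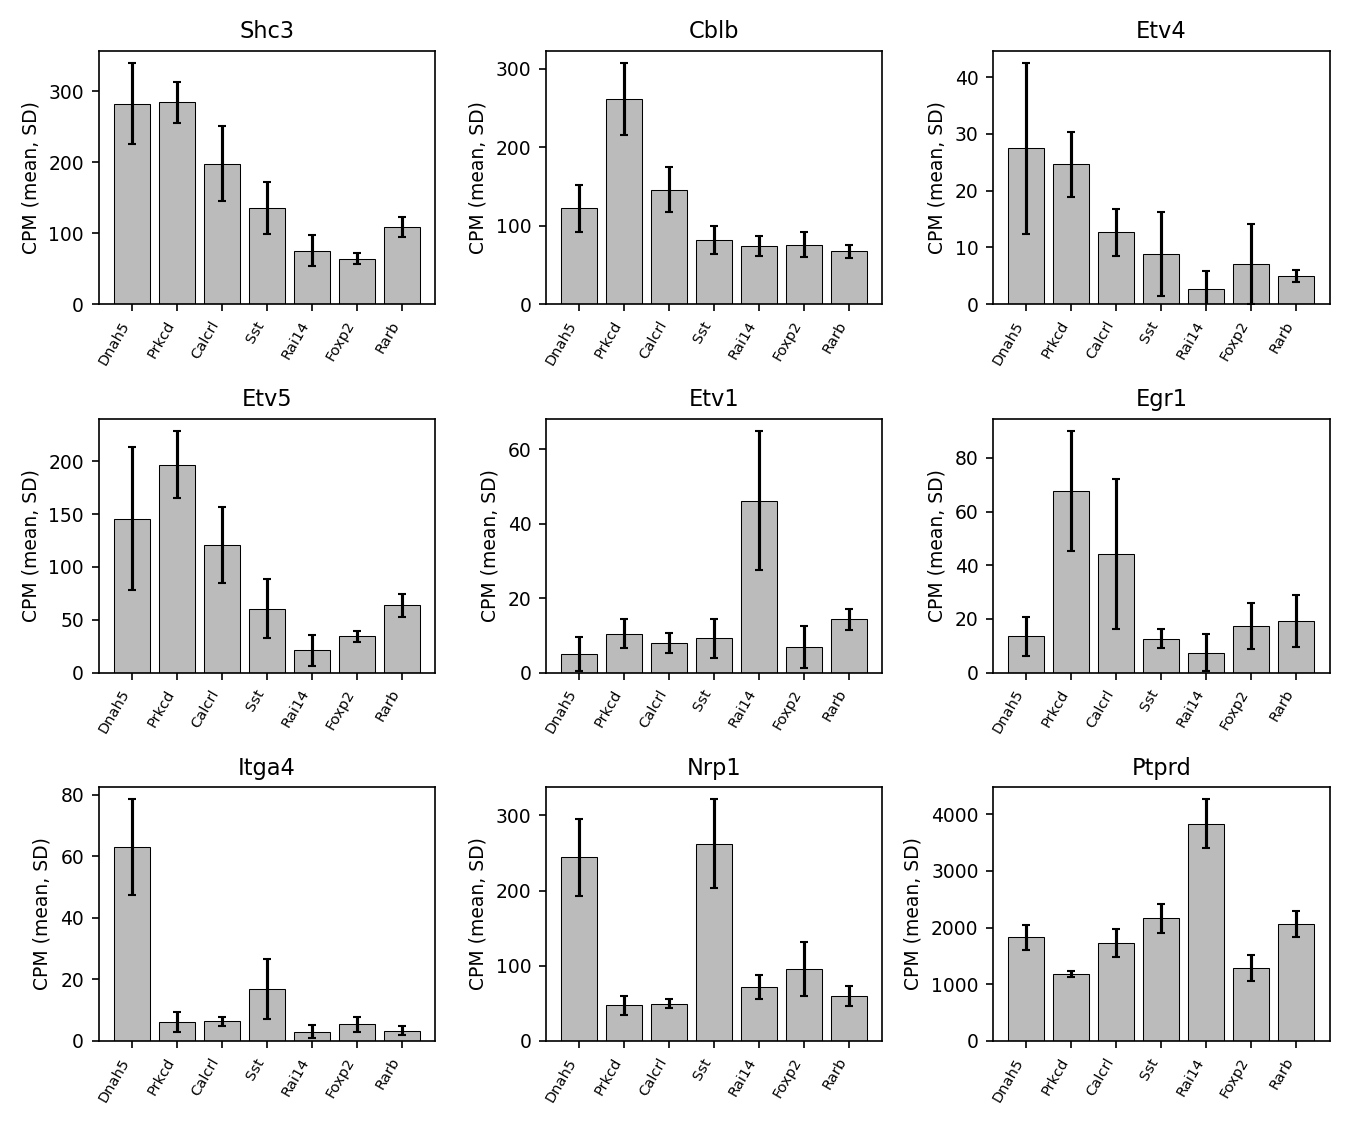
Levels of 9 pathway genes in the 7 neuron classes tested (CPM, bars at the mean and whiskers of 1 SD over 5 libraries). Shc3, Etv4 and Etv5 are high in the Dnah5 and Prkcd classes, Cblb and Egr1 lead in Prkcd, Itga4 in Dnah5, Nrp1 in Dnah5 and Sst, and Etv1 and Ptprd in Rai14.

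Against inhibitory neurons 34.2% of all genes passed in OPCs, 49.2% in astrocytes and 35.9% in oligodendrocytes. All 11 tested genes of list B differed between OPCs and inhibitory neurons, 8 of them higher, led by Etv4 (165 ± 39.0 CPM, log2 difference 4.33), Etv1 (3.20) and Spry4 (4.40). In astrocytes 6 of 10 were higher and 2 lower, led by Etv4 (3.44), Spred1 (1.75) and Spry2 (3.19). In oligodendrocytes none was higher and Spred2, Etv5 and Egr1 were lower by 2.02, 2.70 and 1.88. List C was led by Bcan, the proteoglycan brevican, in astrocytes and OPCs (785 ± 201 and 726 ± 107 CPM against 23.4 CPM in inhibitory neurons), by the syndecan Sdc4 in astrocytes (log2 difference 6.41) and by the PTPRZ1 ligand gene Tnr in OPCs (2.68). List A had 12 of 42 genes higher and 8 lower in astrocytes, 10 and 4 in OPCs, and 6 and 6 in oligodendrocytes, shares near or below those of all genes, with the adaptor Gab1 higher in all 3 (3.36, 3.91 and 5.79).

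Between fed and fasted libraries 0 genes of the 3 lists passed in any of the 7 groups of nuclei with the edgeR test, where 0 to 0.231% of all genes passed. At an unadjusted p under 0.05 there were 8 of 237 tests in list A, 9 of 44 in list B and 10 of 158 in list C (3.38, 20.5 and 6.33%), against 5.89% of 52572 tests over all genes, and DESeq2 passed only Etv5 in the Dnah5 class and Etv4 outside it. These tests are not independent, since the 7 groups share their libraries and the neurons outside the Dnah5 class include the Prkcd and Calcrl classes. Etv4, Etv5 and Spred2 were each counted in both the Dnah5 and the Prkcd class, so the shares are a description. List B values were mostly below 0 in the Dnah5 and Prkcd classes. In the Dnah5 class all 5 of its tested genes were below 0, with a median of -0.52 against -0.008 over all genes, and in the Prkcd class all 8 were, with a median of -0.49 against -0.006. In the Calcrl class its median was 0.24 over 7 genes. Etv5 in the Dnah5 class stood at 220.2, 144 and 205 CPM in the fed and at 66.1 and 91.7 CPM in the fasted libraries, with no overlap and a log2 difference of -1.25 (SE 0.25, adjusted p = 0.294). With the replicate block Etv5 passed, at -1.15 (SE 0.23, adjusted p = 0.0148). It also passed with DESeq2 (0.0370), with a Vipr2 UMI required (0.0174) and with the gate on UMIs per 10000 (0.0461). The same held with the likelihood ratio test (0.00859) and with no filter on low counts (3.82e-04). In each of these settings more genes of the Dnah5 class passed than with the main edgeR test, as counted under the dependence on processing. Etv5 passed in none of the other alternatives, such as the stricter gate or doublets removed. Its ratio was 0.300 within number 1 and 0.637 within number 2. In the Prkcd class Etv5 was at 216, 219 and 214 CPM in the fed and at 191 and 144 CPM in the fasted libraries (log2 difference -0.41, SE 0.18, adjusted p = 0.635).

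Etv4, a close relative of Etv5, stood at 8.38, 8.84 and 10.6 CPM in the fed and at 4.73 and 4.66 CPM in the fasted libraries of inhibitory neurons outside the Dnah5 class. It passed there only with the replicate block (log2 difference -0.92, SE 0.22, adjusted p = 0.00174), with DESeq2, with the likelihood ratio test or with no filter on low counts. Far more genes of that group passed in these settings than with the main edgeR test, as counted under the dependence on processing. In that group the block also called Nrp1 and Shc3 lower, by 0.46 and 0.29, and Bcan and Sdc4 higher, by 0.44 and 1.83, and Stat5b lower by 0.29. Elsewhere it called Jak2 higher in the Calcrl class (0.90), Tnc lower in astrocytes (-2.02) and Bcan higher in oligodendrocytes (1.82). The block raised the count of all genes that passed in these groups too, so such calls were not particular to the lists. List B and the members were measured in the same libraries, so these values stand side by side and are no test of a link. Egr1, an immediate-early gene of list B, had log2 differences of -0.51 (SE 0.53) in the Dnah5 class and -0.09 (SE 0.30) in the Prkcd class, and passed in neither.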

How the data were processed

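Raw UMI counts per gene and barcode, as the authors deposited them after cell calling by Cell Ranger, were used from 5 single-nucleus libraries (3 fed, 2 fasted). The matrix headers name Cell Ranger 5.0.0 and the study's methods name GRCm39 with introns counted, while the submitters' processing notes name mm10 and Cell Ranger 2.1.1. Nuclei with 500 to 8000 genes and under 0.8% mitochondrial UMIs were kept. Glia needed at least 10 marker UMIs of their class and more of those than neuronal ones, and neurons needed 3 times more neuronal than glial marker UMIs. Inhibitory neurons had at most 2 excitatory marker UMIs and at least 1 UMI of Gad1 or Gad2. Each was put in the class whose marker was the largest multiple of its minimum, 3 UMIs for Dnah5 and Prkcd, 2 for Calcrl, Sst, Tac1, Vdr and Rai14, and 6 for Foxp2 and Rarb. Doublets, 0.176 to 2.21% of nuclei by Scrublet in scanpy 1.11.5, were kept and were left out in an alternative.

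UMIs were summed per class and library and tested with edgeR 4.0.16 (TMM scaling, filterByExpr, quasi-likelihood F test, Benjamini-Hochberg adjustment over all genes, threshold 0.05) in R 4.3.3, without a block between fed and fasted libraries and with library as a block between classes. DESeq2 1.42.0 was an alternative. Oligodendrocytes against inhibitory neurons and the interaction of feeding and class were added after seeing the data. The study prepared its fed and fasted libraries in pairs with a further fed batch, and its names were matched to the labels' numbers by elimination, which the labels do not state, so the numbers were taken to pair the samples. Deviations of same-numbered libraries from their group means correlated over genes with r = 0.197 and 0.322 in the Dnah5 class, 0.342 and 0.523 in inhibitory neurons outside it and -0.0318 to 0.0602 in astrocytes. The deviations of 2 fasted libraries mirror each other, so both coefficients of a group use the same fasted values and cannot settle the pairing. Fed 1 and fasted 1 had medians of 8326 and 6608 UMIs, and fed 2 and fasted 2 had 14886 and 16367. The part of depth in the coefficients was not tested. Exact binomial limits and limits at a count of 0 (3 counts) cover counting error only. The scripts were tested on simulated data. Gene positions were taken from the GENCODE annotation of GRCm39. The members and the lists were chosen with earlier results of these data known. The 7 members are all named, and of each list at most 4 genes per comparison, those with the smallest adjusted p.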

Additional observations from a re-analysis of the deposited data

Results flagged for a closer look

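Some members had opposite orders of fed and fasted libraries in different classes, each without overlap between the states. Alk was higher in every fasted library of the Rai14 class, with a ratio of mean fasted to mean fed CPM of 1.46, and lower in every fasted library of the Dnah5, Prkcd and Calcrl classes, with ratios of 0.578, 0.684 and 0.757. Among the neuron classes other than Dnah5 this difference was tested by the interaction of feeding and class, added after seeing the data, and Alk did not pass (adjusted p = 0.448 by edgeR, rank 24 of 9668 genes), although it passed with no filter on low counts (adjusted p = 8.97e-08), and its rank ran from 2 without fasted 1 to 1634 without fasted 2. With no filter 205 of 17385 genes passed. With the gate on UMIs per 10000, where the edgeR interaction test had 5 classes and lacked Rai14, Alk had an adjusted p = 0.889 and rank 1250. The difference between Rai14 and Dnah5 was not tested. Of all genes with a mean of at least 20 CPM, 9.9% had all fasted above all fed libraries in the Rai14 class. The reverse order was held by 8.36, 9.6 and 11.5% of genes in the Dnah5, Prkcd and Calcrl classes.

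Ptn was higher in every fasted library of the Rai14 class, with a ratio of 1.62, and lower in every fasted library of astrocytes, with a ratio of 0.683. It was also higher in every fasted library of the Prkcd class, where its log2 difference was 0.34. Ptprz1 was higher in every fasted library of the Dnah5, Prkcd, Sst and Rai14 classes, with ratios of 1.69, 1.51, 1.34 and 1.51, and lower in every fasted library of astrocytes, with a ratio of 0.824. These differences between neurons and astrocytes were not tested. All fasted lay above all fed libraries for 11.3, 13.8, 11 and 9.9% of genes in the Dnah5, Prkcd, Sst and Rai14 classes. The reverse order was held by 10.4% of genes in astrocytes. Within number 1 the ratio of Ptprz1 in astrocytes was 0.999, and within number 2 it was 0.672. With 3 fed and 2 fasted libraries no group was large enough to look for a single library far from the others.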

How the results depend on the processing

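Over the alternatives no called value of a member changed sign, and 743 recomputed log2 differences stayed on the same side of the threshold, while 12 lost and 12 gained a call, each lost call being given beside its result. Of the levels 317 moved by less than their SD and 5 by more, 4 of them with the stricter gate, such as Alk in the Sst class at 394 CPM. Shares of nuclei depend on depth, and 99 moved by more than their SD and 83 by less when unthinned or thinned to 2000 UMIs, such as Alk in the Prkcd class at 63.2 and 38.0%. Between fed and fasted libraries of the Dnah5 class 1 gene passed, and with DESeq2 9, with the gate on UMIs per 10000 13, with the likelihood ratio test 27, with no filter on low counts 84, with the replicate block 33, with the stricter gate 2, with a Vipr2 UMI required, an alternative chosen after seeing the data, 5, and with doublets removed 0 (450 at an unadjusted p under 0.05 by edgeR). Outside the Dnah5 class 1 gene passed, and 70 with DESeq2, 129 with the likelihood ratio test, 104 with no filter and 463 with the block. In the Prkcd class 18 passed, and 32 with DESeq2, 47 with the gate on UMIs per 10000, 92 with the likelihood ratio test, 143 with no filter and 34 with the block. In the Calcrl class 1 passed, and 2 with DESeq2, 24 with the likelihood ratio test, 54 with no filter, 58 with the block, and 0 with doublets removed, the gate on UMIs per 10000 or the stricter gate (466, 390 and 382 at an unadjusted p under 0.05 by edgeR). In astrocytes 2 passed, and 4 with 1500 to 8000 genes, 35 with DESeq2, 96 with the likelihood ratio test, 166 with no filter, 143 with the block and 0 with doublets removed (384 unadjusted). In OPCs 7 passed, and 4 with DESeq2, 16 with the likelihood ratio test, 17 with no filter and 8 with the block. In oligodendrocytes 0 passed with edgeR and with DESeq2 (175 and 91 unadjusted), 48 with the likelihood ratio test, 54 with no filter and 147 with the block. With 1 library left out these counts ranged from 0 to 1 in the Dnah5 class, 0 to 2 outside it, 0 to 39 in Prkcd, 0 to 44 in Calcrl, 0 to 109 in astrocytes, 2 to 25 in OPCs and 0 to 39 in oligodendrocytes, with 102 to 655 genes at an unadjusted p under 0.05 wherever edgeR passed 0. The interaction of feeding and class passed 205 genes, Alk among them, with no filter and 6 with the gate on UMIs per 10000, and 0 to 2 with 1 library left out (454 to 622 unadjusted). Genes that differed between neuron classes numbered 3101 with the stricter gate against 4930, where 3 classes fell below 10 nuclei in a library, and 4134 to 4682 with 1 library left out. With 1 library left out 5056 to 5598 genes differed between astrocytes and inhibitory neurons and 3145 to 3791 between OPCs and inhibitory neurons. With the replicate block the call of Ptprz1 changed in oligodendrocytes, as did those of the list genes given with it, and of no other member. The cause of these changes was not tested. Where 1 fasted library was left out, the other stood alone for its group and was assumed to vary like the fed ones. Oligodendrocytes could not be fitted with 1500 to 8000 genes, and gate alternatives do not apply to glia. The limits of depth fall on Alkal1, Alkal2 and Mdk, with 24, 71 and 225 UMIs, and on microglia and OPCs, with 71 and 96 nuclei.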

Other observations

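A few nuclei outside the compared classes also held members. The 10 endothelial nuclei, of which 7 were in fed 2 and 2 in fed 3, held 46 UMIs of Ptn, 20 in fed 2 and 26 in fed 3, equal to 1597 and 2500 CPM. The 78 excitatory neurons at the edge of the dissection held Ptn at 35.3 to 83.2 CPM and Ptprz1 at 92.1 to 319.7 CPM in the 5 libraries, and Alk at 0 to 324 CPM. Alkal2 was found in them with 7 UMIs in fed 2 and 6 in fasted 2 and with 0 in the other libraries, so that 13 of its 71 UMIs came from 78 of 6485 nuclei.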
